A study of Mus musculus with 11 samples.

Results

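The genes described are the enzymes that remove superoxide and peroxides directly, namely the superoxide dismutases Sod1, Sod2 and Sod3, catalase (Cat) and the peroxiredoxins Prdx1 to Prdx6. They were followed in S3, the last segment of the proximal tubule and a straight stretch that runs through the outer medulla. Of the 10 genes, 7 had a probe set annotated with exactly 1 gene symbol, out of 22180 genes measured in this way on the array. Prdx1 appeared on 3 probe sets that also list other symbols, among them the pseudogene Gm21399, and no level is given for it. Prdx5 and Prdx6 were named on no probe set in the annotation used here and were not analysed. Each of the 7 measured genes had a single such probe set, so no choice between probe sets was needed.

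The arrays came from 5 samples of mice without Tamm-Horsfall protein (labelled THP -/- and written THP_KO here) and 6 samples of wild-type (WT) mice. All were of the strain 129/SvEv, and neither sex, age nor treatment is given in the labels. Tamm-Horsfall protein, or uromodulin, is the product of Umod, a gene expressed mostly in the thick ascending limb, which lies beside S3. The series title links circulating uromodulin to systemic oxidative stress, and the question put here is whether S3 tubules that lack uromodulin carry other transcript levels of the first-line antioxidant enzymes. The labels name 2 batches without saying what they are, with 3 THP_KO and 5 WT arrays in batch 1 and 2 THP_KO and 1 WT arrays in batch 2. Nothing in the labels ties an array to an animal of its own, and the p-values therefore cover the spread among these samples, which may be technical. The number of arrays limits the precision.

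Superoxide dismutases turn superoxide into hydrogen peroxide, and catalase and the peroxiredoxins then break the peroxide down. The enzymes are divided among compartments, with Sod1 and Prdx2 in the cytosol, Sod2 and Prdx3 in mitochondria, Cat in peroxisomes, Prdx4 in the endoplasmic reticulum and Sod3 secreted to the extracellular matrix. The proximal tubule is rich in mitochondria and peroxisomes, and both organelles generate these oxidants. Peroxiredoxins such as Prdx2 and Prdx3 take their electrons from thioredoxin, which thioredoxin reductase recharges with NADPH.

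The promoters of 3 of the genes are shown, 1 from each of the cytosolic, mitochondrial and peroxisomal compartments. They were chosen because the signals of these genes were positively correlated across the arrays, as were all 21 pairs of the measured genes described further on. With genotype and batch removed, the pairs among these 3 genes had Pearson r of 0.78 to 0.85 (adjusted permutation p of 0.0708 to 0.0756). Prdx2 and Cat had the highest r of all pairs, 0.9, and Sod2 and Prdx3 had 0.86, so the 3 genes are not a set apart. Whether these windows relate to the signals was not tested. Each window holds 250 bases before and 50 bases after the RefSeq start, 5′ to 3′ on the gene's strand, in build GRCm38.p6 of the C57BL/6J strain, which is not the strain studied. Capitals mark matches on either strand to TGACNNNGC, the core of the antioxidant response element bound by NRF2, to GGGCGG, the GC box, and to TATAAA, the TATA box.
Sod1, chr16:90220512-90220811, plus strand: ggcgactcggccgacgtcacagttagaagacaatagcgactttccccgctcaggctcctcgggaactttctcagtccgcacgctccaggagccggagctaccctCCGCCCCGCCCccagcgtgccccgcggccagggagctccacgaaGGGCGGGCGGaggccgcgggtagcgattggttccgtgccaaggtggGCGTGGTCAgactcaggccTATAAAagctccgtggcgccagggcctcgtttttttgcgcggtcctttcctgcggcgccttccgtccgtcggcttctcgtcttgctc
Sod2, chr17:13007589-13007888, plus strand: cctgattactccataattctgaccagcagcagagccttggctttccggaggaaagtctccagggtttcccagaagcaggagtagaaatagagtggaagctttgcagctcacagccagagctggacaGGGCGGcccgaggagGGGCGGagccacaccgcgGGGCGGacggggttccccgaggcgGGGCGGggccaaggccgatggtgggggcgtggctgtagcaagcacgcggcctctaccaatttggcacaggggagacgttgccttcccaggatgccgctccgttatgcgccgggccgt
Cat, chr2:103485104-103485403, minus strand: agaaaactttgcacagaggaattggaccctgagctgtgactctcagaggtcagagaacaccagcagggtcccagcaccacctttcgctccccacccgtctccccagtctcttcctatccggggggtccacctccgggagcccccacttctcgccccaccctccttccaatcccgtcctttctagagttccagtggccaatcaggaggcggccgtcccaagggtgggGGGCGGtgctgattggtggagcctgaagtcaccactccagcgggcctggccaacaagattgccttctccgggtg

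The GC content of the 3 windows was 66.7% for Sod1, 64.3% for Sod2 and 62.0% for Cat, and each held at least 1 GC box. The windows found for other members ran from 57.0% (Prdx3) to 68.7% (Prdx2). GC content was not computed for all RefSeq windows. Sod1 held 4 GC boxes, which form 2 overlapping pairs, and it alone of the 3 held the antioxidant response element core and a TATA box. Sod2 held 4 separate GC boxes and Cat held 1. Among the 32851 RefSeq promoter windows of the same length, 12.4% held the antioxidant response element core, 35.7% a GC box and 13.6% a TATA box. These matches are descriptions of the letters in the windows and show no binding. RefSeq windows were also found for Prdx1 to Prdx5. That of Prdx1, which has no level here, held the antioxidant response element core, a GC box and a TATA box. Those of Prdx2, Prdx3, Prdx4 and Prdx5 held at least 1 GC box each and no antioxidant response element core.

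The array held 41345 probes, and the median log2 signal of an array was 3.85 to 4.01. Umod, the targeted gene, was lower in the THP_KO arrays, at 3.68 to 5.27 against 5.27 to 6.74 in WT, with a limma log2 change of -1.52 ± 0.24 (SE), a Benjamini-Hochberg adjusted p of 0.281 over all probes and an exact permutation p of 0.00595 within batches. Whether its probe lies in the deleted part is not known, and THP_KO replicate 5 equalled the lowest WT arrays. Shared proximal tubule markers were bright on every array, with list means of 9.86 to 10.21 in THP_KO and 9.67 to 10.16 in WT. One library stood apart. THP_KO replicate 4 had thick ascending limb and collecting duct list means of 7.47 and 5.78, above all other arrays, which lay between 5.28 and 6.20 and between 4.30 and 4.97. Each genotype difference of the 7 enzymes is therefore given with and without that array.

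None of the 7 measured genes differed detectably between THP_KO and WT tubules. Over all probes, limma found 0 members past an adjusted p of 0.05, where 0.0% of the 41345 probes passed. At an unadjusted p under 0.05 there were again 0 members, against 6.16% of all probes. The fitted log2 changes, THP_KO minus WT with batch as a term, ran from -0.02 for Prdx2 to 0.26 for Prdx4, with a median of 0.22 where all probes had a median of 0.002. Of the 7 changes 6 were above 0 (all 7 after median centring of the arrays), beside 50.4% of all probes and 53.4% of the annotated genes, and each of the 6 had a 95% interval that spans 0. The groups overlapped for all 7 genes, and over the whole array 0.597% of probes had groups that did not. Without THP_KO replicate 4 the changes ran from -0.10 to 0.19, and without THP_KO replicate 3 from -0.21 to 0.20.

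**Figure D1:**
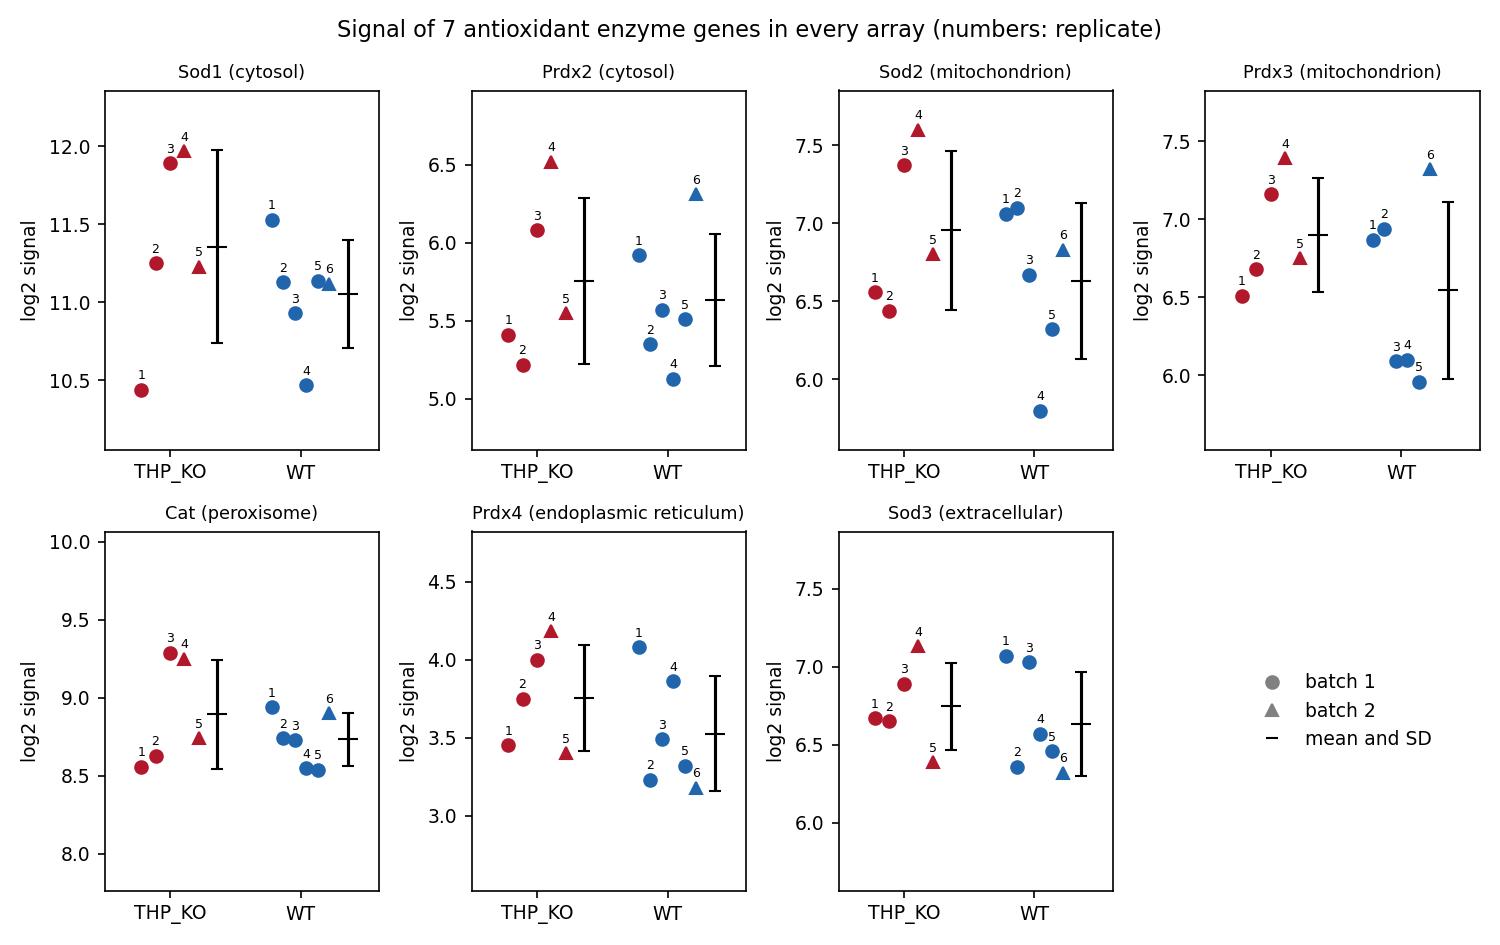
Log2 signal of the 7 measured genes on every array, THP_KO on the left and WT on the right of each panel, with circles for batch 1, triangles for batch 2, replicate numbers above the points, and the mean with its SD as a bar. Every panel spans the same height in log2 units, and the 2 groups overlap in all 7, with THP_KO replicate 4 among the 2 highest arrays in each.

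In the cytosol, the copper and zinc superoxide dismutase Sod1 read 10.44, 11.25, 11.89, 11.97 and 11.23 in THP_KO replicates 1 to 5. The WT arrays ran from 10.47 through a median of 11.13 to 11.53. THP_KO replicates 3 and 4 lay above every WT array and THP_KO replicate 1 lay below every WT array, so the spread was wider in THP_KO (SD 0.618, n = 5) than in WT (SD 0.347, n = 6). That difference in spread was not tested. The means were 11.36 in THP_KO and 11.05 in WT, and the limma log2 change was 0.24 ± 0.28 (SE, 95% interval -0.38 to 0.86), with an adjusted p of 0.906. It was 0.15 within batch 1 and 0.48 within batch 2, and 0.14 without THP_KO replicate 4. It was 0.02 without THP_KO replicate 3 and 0.51 without THP_KO replicate 1.

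The cytosolic peroxiredoxin Prdx2, also an abundant protein of red cells, read 5.41, 5.22, 6.08, 6.52 and 5.55 in THP_KO replicates 1 to 5. In WT it ran from 5.13 through a median of 5.54 to 6.31. The high arrays were THP_KO replicates 3 and 4 and WT replicate 6, and the groups overlapped over most of their range. The log2 change was -0.02 ± 0.23 (SE, 95% interval -0.53 to 0.49), with a limma adjusted p of 0.996, and its sign differed between batch 1 (0.07) and batch 2 (-0.27). Without THP_KO replicate 4 it was -0.10 and without THP_KO replicate 3 it was -0.21. Of the 7 red cell markers listed, only Epb42 was measured by the same naming rule, and its signal, 2.80 to 2.95 in THP_KO and 2.69 to 3.11 in WT, was below the median of every array.

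In mitochondria, the manganese superoxide dismutase Sod2 read 6.56, 6.44, 7.37, 7.60 and 6.80 in THP_KO replicates 1 to 5, and 5.80 to 7.10 with a median of 6.75 in WT. As for Sod1, THP_KO replicates 3 and 4 lay above all WT arrays, and the lowest array was WT replicate 4. The means were 6.95 ± 0.508 in THP_KO (SD, n = 5) and 6.63 ± 0.496 in WT (SD, n = 6). The log2 change was 0.24 ± 0.28 (SE, 95% interval -0.38 to 0.87), with a limma adjusted p of 0.905. Within batches it was 0.20 in batch 1 and 0.37 in batch 2, and without THP_KO replicate 4 it was 0.15. It was 0.06 without THP_KO replicate 3 and 0.11 without WT replicate 4.

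Prdx3, the mitochondrial peroxiredoxin that disposes of most hydrogen peroxide in the matrix, read 6.51, 6.68, 7.16, 7.39 and 6.75 in THP_KO replicates 1 to 5. In WT it ran from 5.96 through a median of 6.49 to 7.32. WT replicates 3, 4 and 5 lay below every THP_KO array, while WT replicate 6 lay above all but 1 of them. The log2 change was 0.22 ± 0.25 (SE, 95% interval -0.33 to 0.77), with a limma adjusted p of 0.904. The sign differed between batch 1, at 0.39, and batch 2, at -0.25, where WT replicate 6 is the single WT array. It was 0.19 without THP_KO replicate 4 and 0.06 without THP_KO replicate 3.

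Catalase, the haem enzyme that splits hydrogen peroxide in peroxisomes, had the smallest standard error of the 7 genes. Cat read 8.56, 8.63, 9.29, 9.25 and 8.74 in THP_KO replicates 1 to 5, against 8.54 to 8.94 with a median of 8.74 in WT. Again THP_KO replicates 3 and 4 were the only arrays above the WT range, and the other 3 THP_KO arrays fell inside it. The log2 change was 0.12 ± 0.17 (SE, 95% interval -0.25 to 0.48, the narrowest of the 7), with a limma adjusted p of 0.925. It was 0.13 within batch 1, 0.10 within batch 2, 0.07 without THP_KO replicate 4 and -0.04 without THP_KO replicate 3.

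Prdx4, the peroxiredoxin of the endoplasmic reticulum, where peroxide arises during disulphide formation, had dim signal. It read 3.45, 3.75, 4.0, 4.18 and 3.40 in THP_KO replicates 1 to 5, and 3.18 to 4.08 with a median of 3.41 in WT. It exceeded the median of its own array in 3 of 11 arrays and may not exceed background, and its change is left on the log2 scale. The fitted log2 change, 0.26 ± 0.22 (SE), had the smallest limma p of the 7 genes (0.251, adjusted p = 0.871) and an exact permutation p of 0.310 within batches. It was 0.14 within batch 1, 0.61 within batch 2 and 0.15 without THP_KO replicate 4.

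The secreted superoxide dismutase Sod3, which binds heparan sulphate outside cells, read 6.67, 6.65, 6.89, 7.13 and 6.39 in THP_KO replicates 1 to 5. In WT it ran from 6.32 through a median of 6.52 to 7.07. The single array above the WT range was THP_KO replicate 4, and WT replicates 1 and 3 were next. The log2 change was 0.14 ± 0.19 (SE, 95% interval -0.28 to 0.57), with a limma adjusted p of 0.921. It was 0.04 within batch 1, 0.44 within batch 2 and 0.05 without THP_KO replicate 4.

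**Figure D2:**
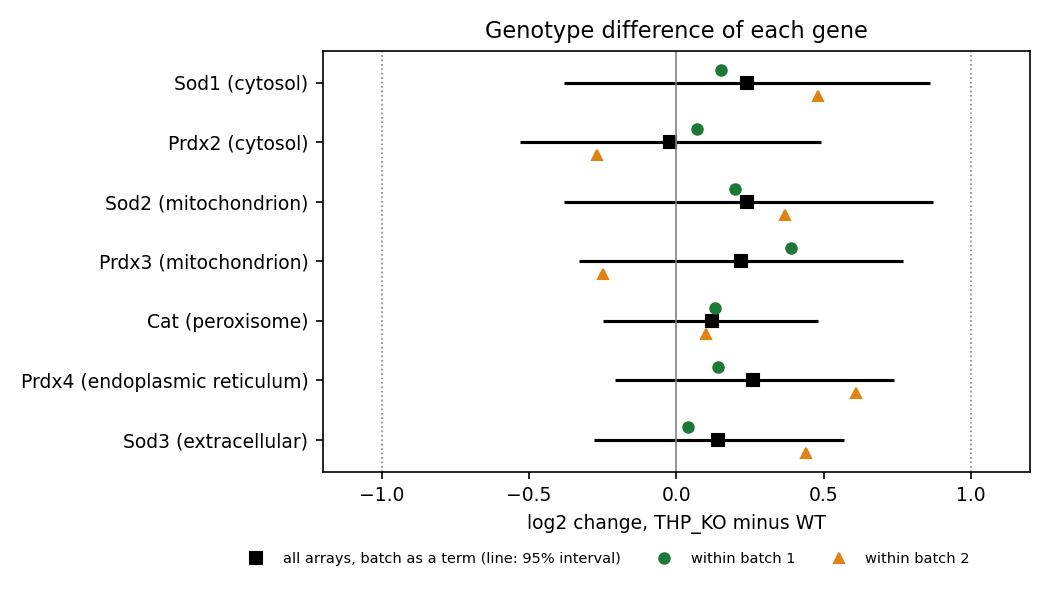
Log2 change of each gene, THP_KO minus WT, with all arrays and batch as a term (squares, lines for the 95% interval) and within batch 1 (circles) and batch 2 (triangles). All 7 intervals cross 0 and lie inside the dotted lines at -1 and 1, and Prdx2 and Prdx3 have opposite signs in the 2 batches.

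The intervals bound the size of a difference that these arrays could have missed. As folds of THP_KO over WT, the lowest bound was 0.695 (Prdx2) and the highest 1.83 (Sod2), so a 2-fold change in either direction lay outside all 7 intervals. With single arrays left out, the highest bound was 2.10, for Sod2 without THP_KO replicate 2, and the lowest was 0.612, for Prdx2 without THP_KO replicate 3. These folds are on the scale of the deposited signal, which array normalization can compress, and for Prdx4 they say little because its signal was dim. When genotype was permuted within batches, the two-sided exact p of the 7 genes lay between 0.310 and 0.946, where the smallest p that the 168 arrangements allow is 0.00595.

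For each of the 7 genes the range among the THP_KO arrays was wider than the difference between the genotype means. The enzymes tended to be high or low on the same arrays, although no pair passed the threshold for correlation after adjustment. THP_KO replicate 4 was among the 2 highest arrays for 7 of 7 genes and THP_KO replicate 3 for 3, while WT replicate 4 was among the 2 lowest for 4. The mean deviation of the 7 genes from their own means over the 11 arrays was 0.65 in THP_KO replicate 4, 0.46 in THP_KO replicate 3 and 0.28 in WT replicate 1. At the other end it was -0.43 in WT replicate 4, -0.32 in WT replicate 5 and -0.27 in THP_KO replicate 1. After quantile normalization of the deposited values, an alternative added after seeing the data, the 3 high arrays stood at 0.47, 0.39 and 0.30.

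The same 3 arrays were the highest for shared proximal tubule markers, a list of 7 measured genes that includes the transporter Slc34a1 and the fatty acid transport protein Slc27a2. The list mean was 10.21 in THP_KO replicate 4, 10.14 in THP_KO replicate 3 and 10.16 in WT replicate 1. It was lowest in WT replicate 4, at 9.67, in WT replicate 5, at 9.75, and in THP_KO replicate 1, at 9.86. The lower quartile of all probes moved the opposite way, at 2.85, 2.90 and 2.89 in the 3 high arrays and 2.95 or above in the others. In THP_KO replicate 4 the thick ascending limb, collecting duct and endothelial list means were also the highest, at 7.47, 5.78 and 5.07. A larger share of proximal cells and more RNA per cell cannot be told apart in such samples. The part of these marker lists and of the array distribution in the levels of the enzymes was not tested.

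**Figure D3:**
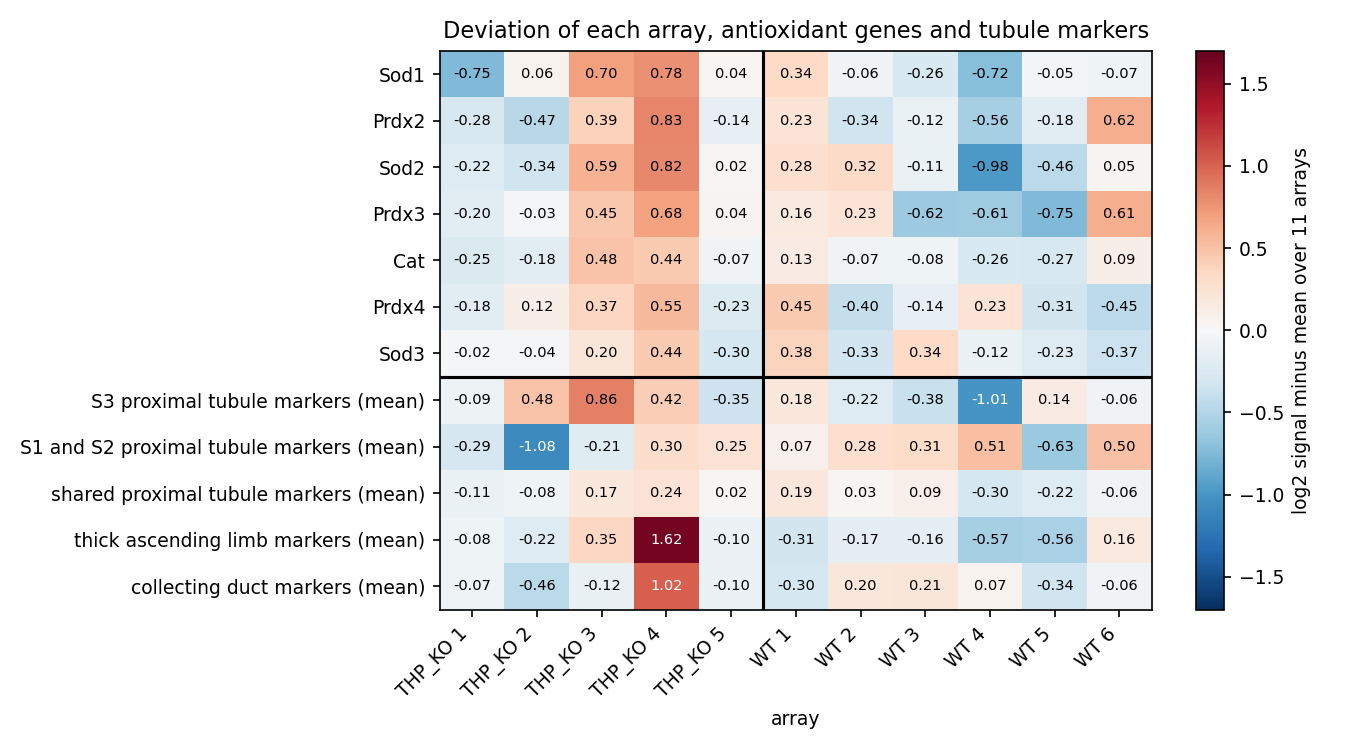
Log2 signal minus the mean over the 11 arrays for the 7 genes (upper rows) and for the means of 5 tubule marker lists (lower rows), with THP_KO arrays left of WT arrays. THP_KO replicates 3 and 4 are above the mean for all 7 genes, and THP_KO replicate 4 also has the highest thick ascending limb and collecting duct means.

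With each gene centred within genotype and batch, all 21 pairs among the 7 genes had a positive correlation, with a median Pearson r of 0.71. The 11 arrays give fewer independent values here. WT replicate 6, the only WT array of batch 2, was centred on itself and carries no information on the pairs. THP_KO replicates 4 and 5, the only THP_KO arrays of batch 2, became equal and opposite deviations. The closest pair was Prdx2 and Cat, with r = 0.90 and Spearman's rho = 0.83. Their exact permutation p was 0.0139 for r and 0.0417 for rho, or 0.0708 and 0.122 after Benjamini-Hochberg adjustment over the 21 pairs, and r was 0.86 without the 2 arrays farthest from the median of Prdx2. Sod1 and Cat had r = 0.85 and rho = 0.78 (adjusted permutation p = 0.0708 and 0.122), with r = 0.75 without the 2 farthest arrays. For Sod2 and Cat, r was 0.85 and rho 0.82, with the same adjusted p values and r = 0.90 without the 2 farthest arrays. The mitochondrial pair, Sod2 and Prdx3, had r = 0.86 and rho = 0.77, again with adjusted permutation p of 0.0708 and 0.122, and r = 0.89 without the 2 farthest arrays. The weakest pair was Sod2 and Prdx4, with r = 0.30 (adjusted permutation p = 0.457) and rho = 0.32 (0.441). None of the 21 pairs passed 0.05 after adjustment.

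Other genes on the same arrays had similar patterns, in a share that differed between the enzymes. With batch means removed, 6.21% of 22179 genes had a Pearson r of at least 0.7 with Cat over the 11 arrays, and 4 of the other 6 enzymes did. For Sod2 the share was 7.24% of genes and 4 of the other 6 enzymes, and for Sod1 5.10% and 2 of 6. The shares were lower for Prdx3 (3.44%), Prdx2 (3.23%), Sod3 (2.11%) and Prdx4 (1.46%). For Prdx4, the gene with the smallest p, the 5 genes with the most similar pattern were the vesicle fusion protein Vamp3 (r = 0.94), Mir7-1 (0.93), the reductase Cyb5r4, the aldehyde dehydrogenase Aldh9a1 and the proteasome subunit Psmb6 (each 0.91). Prdx4 was dim, and so was Cyb5r4, with a mean log2 signal of 3.13. The r values come from arrays that share their normalization and describe likeness alone.

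A list of 13 genes joined the thioredoxin system, which regenerates peroxiredoxins such as Prdx2 and Prdx3, with Srxn1, the sestrins, Txnip, Glrx, Txndc17 and Nxn. Of these 13 genes 9 had a log2 change above 0 and 4 below, with a median of 0.05, beside 53.4% of the annotated genes above 0. In this list 0 genes passed the limma threshold. Without THP_KO replicate 4, 6 of the 13 were above 0 and the median was -0.01. Txnrd1, the cytosolic thioredoxin reductase, read 6.46 to 7.19 with a median of 6.67 in THP_KO and 6.11 to 6.52 with a median of 6.45 in WT, and 4 of 5 THP_KO arrays exceeded every WT array. Its log2 change was 0.27 ± 0.13 (SE), with a limma adjusted p of 0.820. The mitochondrial thioredoxin Txn2, the electron donor of Prdx3, was at 0.18 ± 0.12 (limma adjusted p = 0.844), also with 4 of 5 THP_KO arrays above the WT range. Txnrd1 and Txn2 were named for their small p in this list. The share of all probes with such a separation was not counted. Sesn2, a stress-induced sestrin, was at -0.41 ± 0.27, and the thioredoxin relative nucleoredoxin, Nxn, at -0.14 ± 0.10 between dim signals. Sulfiredoxin, Srxn1, which repairs overoxidised peroxiredoxins, was at 0.16 ± 0.15.

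A further list joined genes that supply metals to the dismutases, import catalase into peroxisomes or make and recycle glutathione. Of its 13 genes 12 had a log2 change above 0, beside 53.4% of the annotated genes, with a median of 0.21, and 0 passed the limma threshold. Without THP_KO replicate 4 it was 11 of 13, with a median of 0.20, and after quantile normalization 10 of 13. The members with the smallest p were the glutathione enzymes Gclc (0.84 ± 0.28, SE) and Gss (0.30 ± 0.13), the zinc, iron and manganese carrier Slc39a14 (0.42 ± 0.17) and Pex14, a docking protein of peroxisomal import (0.22 ± 0.11). Their limma adjusted p ran from 0.758 to 0.823. Of the 13 genes 3 (Gclc, Slc39a14 and Gss) had an unadjusted limma p under 0.05, all with a log2 change above 0. Of the 22180 annotated genes 808 above 0 and 444 below 0 had such a p. The thioredoxin and glutathione peroxidase lists held 0 such genes. Pex5, the receptor that carries catalase to the peroxisome, was at 0.14 ± 0.15, and Ccs, the copper chaperone of Sod1, at 0.21 ± 0.19. Slc39a14 read 6.63 to 6.99 with a median of 6.80 in THP_KO and 5.97 to 6.84 with a median of 6.46 in WT.

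The glutathione peroxidases, which share the peroxide substrates of catalase and the peroxiredoxins, pointed in both directions. Of 6 measured genes 2 had a log2 change above 0 and 4 below, beside 53.4% of the annotated genes above 0. Their median was -0.05 and 0 passed the limma threshold. Gpx4, which reduces lipid peroxides in membranes, was at 0.24 ± 0.14 (SE; limma adjusted p = 0.826), and the cytosolic Gpx1 at -0.34 ± 0.32 (limma adjusted p = 0.885). Gpx1 read 9.23 to 10.77 in THP_KO and 9.66 to 10.82 in WT. Gpx7 and Gpx8, of the endoplasmic reticulum, were at 0.10 ± 0.15 and -0.16 ± 0.14, and Gpx7 was dim, above the median of its own array in 3 of 11 arrays, against 9 of 11 for Gpx8.

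**Figure D4:**
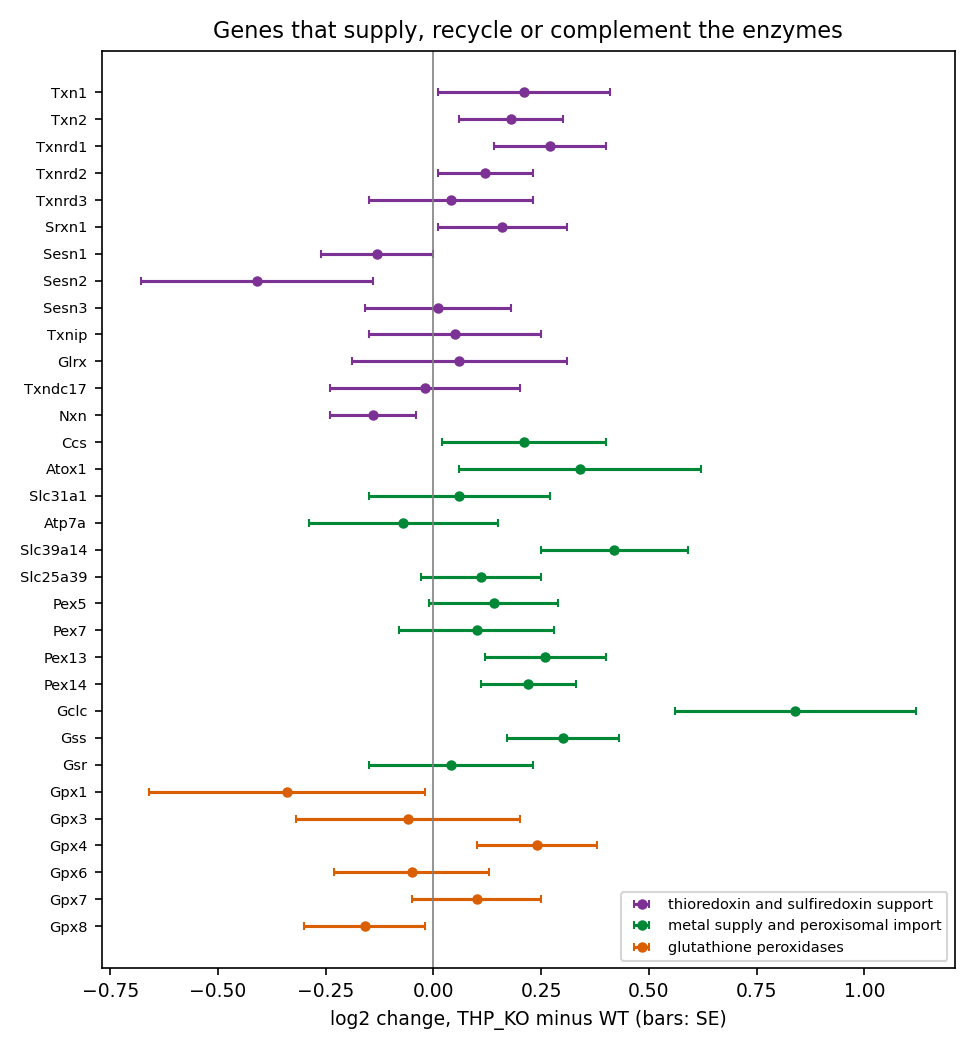
Log2 change, THP_KO minus WT, of the genes listed beside the enzymes, with bars for the SE and colours for the 3 lists. Gclc has the highest value, 0.84, and Sesn2 the lowest, -0.41, and none of the 32 genes passed the limma threshold.

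Markers of the tubule segments leaned in different directions beside these genes. Of all annotated genes 53.4% had a log2 change above 0, with a median of 0.01. All 10 S3 markers had a log2 change above 0 (9 without THP_KO replicate 4), with a median of 0.51 and list means of 7.54 to 8.75 in THP_KO and 6.88 to 8.07 in WT. All 8 markers of the S1 and S2 segments were below 0, with a median of -0.37 and list means of 5.31 to 6.69 in THP_KO and 5.76 to 6.90 in WT. All 7 measured thick ascending limb markers were above 0 (5 without THP_KO replicate 4, where the median was 0.23), with a median of 0.41 and list means of 5.63 to 7.47 in THP_KO and 5.28 to 6.01 in WT. These 3 counts were the same after quantile normalization and after median centring. The other marker lists had median changes of 0.11 (shared proximal tubule), 0.02 (collecting duct, -0.14 without THP_KO replicate 4), 0.06 (endothelium), -0.14 (pericytes and smooth muscle) and 0.02 (leukocytes). Of the 9 leukocyte markers 5 had a log2 change above 0 and 4 below. The count above 0 was 8 after quantile normalization, 7 after median centring and 6 without THP_KO replicate 4. The macrophage receptor Csf1r was the only one of the 9 leukocyte markers with an unadjusted limma p under 0.05. Its signal was 6.62 to 7.11 with a median of 7.08 in THP_KO and 5.72 to 6.62 with a median of 6.48 in WT. For Csf1r 4 of 5 THP_KO arrays exceeded every WT array, and the share of all probes with such a separation was not counted. The log2 change of Csf1r was 0.58 ± 0.19 (SE; limma adjusted p = 0.735, exact permutation p = 0.0298 within batches). The T cell receptor component Cd3e was at -0.34 ± 0.16 (limma adjusted p = 0.820). No marker passed the limma threshold, and the S3 markers Acy3 and Slc7a13 were at 0.30 ± 0.17 and 0.43 ± 0.30 (SE). The part of segment and leukocyte composition in the enzyme differences was not tested.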

How the data were processed

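RNA of kidney S3 proximal tubules was extracted with a kit for very small samples, labelled with biotin and hybridised to expression arrays, per the labels' protocols. The deposited values are log2 signals, made with Partek 6.6 and RMA per the submitters' processing notes. RMA corrects background, draws array distributions together and summarises each probe set, which can shrink broad changes. Batch correction, filters and genome build are not given in the sources used here. Of 41345 probes 23521 carried 1 gene symbol in the platform annotation, 1814 several and 16010 none. Where a gene had several probe sets, the one with the highest mean was kept.

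Each probe was fitted with limma 3.58.1 in R 4.3.3 on the log2 values with genotype and batch as terms. Tests were two-sided with 8 residual degrees of freedom, dim probes were kept, and a probe was called at a Benjamini-Hochberg adjusted p under 0.05 over the whole table. On simulated data of 41345 probes for THP_KO against WT, the fit called 68 of 100 probes given a log2 change of 1 and 96 of 100 given a change of 2. It also called 12 unchanged probes. The simulated noise was normal and independent between probes, without deviations shared by the genes of an array. Those counts check the fit and do not measure its power in the deposited arrays, where 0 probes were called. Single values were also tested by exact permutation of genotype within batches in Python 3.11.15. Pairs of genes were tested by exact permutation within genotype and batch (1440 arrangements). Levels of different probe sets were not compared. Of 106 symbols in the 12 further lists 97 were measured. The rule for naming took the 7 genes, Umod, up to 4 genes of smallest p in each of 3 support lists, 5 genes most like the member with the smallest p, and the 2 brightest of each marker list. Srxn1, Pex5 and Ccs fall outside it and were named after their values were seen, for their roles. The genes and lists were chosen with earlier results of these data known.

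Alternatives treated batch otherwise (left out, as a random block, or its first level only), blocked on replicate number, tested only brighter probes or a single probe set per gene, averaged the probe sets of a gene, rescaled the arrays (by quantiles or by medians), weighted arrays, used a trended and robust prior, or left out arrays singly.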

Additional observations from a re-analysis of the deposited data

How the results depend on the processing

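Under the 22 alternatives 0 of the 7 genes passed the threshold, with adjusted p between 0.747 and 1.0. The median change of the 7 genes lay between 0.06 and 0.30 with single arrays left out and between 0.00 and 0.24 otherwise. Prdx2 turned to 0.12 without the batch term, 0.14 with batch as a random block and 0.07 in batch 1 alone, and lay between -0.21 and 0.10 with single arrays left out, above 0 without WT replicates 1 or 6 or THP_KO replicates 1, 2 or 5. Cat ran from -0.04, without THP_KO replicate 3, to 0.21. Sod1 ran from 0.02, without THP_KO replicate 3, to 0.51, without THP_KO replicate 1. With the replicate number as a block beside the batch term, Sod2 turned to -0.15 and Sod3 to -0.08, Sod1 stood at 0.00, and the bounds for Sod1 widened to 0.468 and 2.13 as folds. The deviations of same-numbered arrays from their genotype means correlated between -0.181 and 0.0118, which gave no sign that the numbers pair the samples. Batch was not removed there, and the arrays numbered 4 and 5 lie in different batches, so pairing is not settled. The block changed no call. The count over all probes, 0 at first, was 3 in batch 1 alone and 1 with 1 probe set per gene. It lay between 0 and 11 with single arrays left out, at 11 without THP_KO replicate 5, 3 without WT replicate 6, 2 without THP_KO replicate 3 and 1 without WT replicate 1, and none of those probes was a member. Leaving out WT replicate 6 bases the comparison on batch 1. The cause of these shifts was not tested. The filter on dim probes removed Prdx4. Dim signal limits Prdx4, and the number of arrays limits all 7 genes.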
